A study of Mus musculus with 9 samples.

Results

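Cytosolic ribosomal protein genes encode the proteins of the ribosome that translates messages from the cell nucleus. The small subunit holds the proteins named RPS and reads the message, and the large subunit holds the proteins named RPL and joins amino acids. The encoded proteins are needed in nearly equal numbers, and most of the messages start with a pyrimidine tract, the terminal oligopyrimidine (TOP) start, through which mTORC1 signalling sets how strongly they are translated. Several members have a paralog, a related gene copy that encodes a similar protein in some tissues, and nearly all have many processed pseudogenes, which are copies of the message that were inserted back into the genome.

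The members were taken by name: protein-coding genes called Rpl or Rps with a number, together with Rplp0, Rplp1, Rplp2 and Rpsa, without the Rps6k kinases and the named pseudogenes. This gave 84 of the 54532 listed genes, 32 of the small and 52 of the large subunit. The rule used no measured value. Of the 84 members, 82 had enough reads to be tested. Rpl3l, a paralog of muscle, had at most 2 reads in any library and Rpl10l, a paralog of the male germ line, had 0 reads in all 9, so these 2 were not tested.

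Adipose stem cells (ASCs), stromal cells that can form fat, bone, cartilage and vessel cells, were grown from the fat of C57BL/6 mice, and their RNA was sequenced in 3 libraries per group. Sub-ASCs came from subcutaneous fat, Ab-ASCs from abdominal fat and PVASCs from the fat around vessels. The groups shared the strain and the stem cell medium, and no genetic change or drug was part of this comparison. Age, sex, the passage of each culture and whether replicates came from separate animals were not given, so p-values measure only the spread between these libraries, which may be technical. The libraries held 20524173 to 29881036 counted reads, and 3 reads, taken as the smallest measurable count, were 0.0917 to 0.161 CPM, the read count scaled to a library of 1000000 reads.

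Of the surface genes that define ASCs, Ly6a ran from 1919 to 2138 CPM in Sub-ASCs, 19.8 to 25.7 CPM in Ab-ASCs and 107 to 116 CPM in PVASCs, and Thy1 and Eng were at 104 CPM or more in every library. Ptprc, which ASCs should lack, was at most 9.67 CPM, but Pecam1, which they should also lack, reached 46.4, 13.6 and 182 CPM in Sub-ASCs, Ab-ASCs and PVASCs. Summed markers of other cells also differed. The 6 smooth muscle markers summed to 60.7 to 65.3 CPM, 4446 to 5523 CPM and 2703 to 2851 CPM in Sub-ASCs, Ab-ASCs and PVASCs. The 8 mesothelial markers summed to 2.75 to 2.94 CPM, 122 to 131 CPM and 47.9 to 49.7 CPM in the same order, with Lrrn4 and Upk1b at 0 in Sub-ASCs. The 7 endothelial markers summed to 184 to 200 CPM, 64.6 to 67.4 CPM and 764 to 769 CPM, and the 8 macrophage markers to 277 to 286 CPM, 321 to 419 CPM and 310 to 321 CPM. Most single macrophage markers went against these sums. Against Sub-ASCs, 2 were called higher and 6 lower in Ab-ASCs, and also 2 higher and 6 lower in PVASCs. Their median log2 fold changes were -0.61 and -0.92. Over all genes, 37% and 34.7% were higher and 38.3% and 35.7% lower in these comparisons. The part of these other cells in the results below was not tested, and in bulk samples fewer cells of a type and less RNA per cell cannot be told apart.

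Ribosomal protein genes took a larger share of the reads in every Ab-ASC and PVASC library than in any Sub-ASC library. The 84 members took 3.79%, 3.43% and 3.79% of all counted reads in the 3 Sub-ASC libraries. They took 5.63%, 4.49% and 4.70% in Ab-ASCs, and 4.58%, 4.64% and 5.01% in PVASCs. Ab-ASCs and PVASCs overlapped. The means were 3.67% ± 0.209, 4.94% ± 0.609 and 4.75% ± 0.232 (SD, n = 3 libraries each). The exact permutation test of 3 against 3 libraries cannot give a two-sided p under 0.10, so none is given for the share. Ab-ASC replicate 1 stood above the other Ab-ASC libraries, and without it the Ab-ASC mean was 4.59%. Its counts also stood apart, with a chi-square per degree of freedom over genes of 29.3 and 18.5 against the other Ab-ASC libraries, which had 4.26 between them. The share of reads on the mitochondrial chromosome was 0.580% in this library and 0.824% and 0.809% in the other Ab-ASC libraries, with group means of 0.983% in Sub-ASCs, 0.738% in Ab-ASCs and 1.32% in PVASCs. Its part in the member share was not tested.

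**Figure D1:**
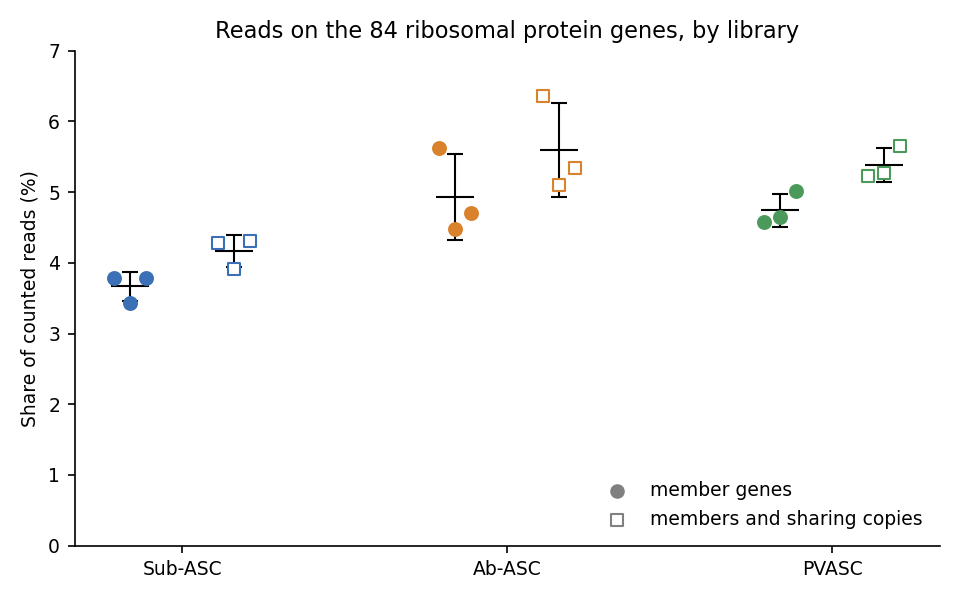
Share of counted reads in percent (y axis) for each library of the 3 groups (x axis). Filled circles are the 84 member genes, open squares add the copies that share sequence with them, and bars are mean ± SD of 3 libraries. The Sub-ASC libraries lie lowest on both measures, and Ab-ASC replicate 1 lies highest at 5.63% on the member genes.

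In the test across all genes, most members were higher in Ab-ASCs than in Sub-ASCs. The quasi-likelihood test of edgeR, adjusted after Benjamini and Hochberg over 16526 genes, called 69 of 82 members higher and 2 lower at an adjusted p under 0.05, and 11 were not called. Over all genes, 37% were called higher and 38.3% lower, 75.3% in all, so the 71 members called were near the background in number and differed from it in direction. The median log2 fold change was 0.51 for the members and -0.03 for all genes tested. The middle 80% of members lay between 0.19 and 0.82, so the change was small for nearly all of them, and 7 of 82 were called with an absolute value of at least 1, against 37.8% of all genes. The subunits had similar values, with 28 of 32 small subunit members higher and a median of 0.49, and 41 of 50 large subunit members higher and a median of 0.52. In 68 members every Ab-ASC library was above every Sub-ASC library, and in 2 every library was below, where the shares over all genes were 37.4% and 39.1%. Without Ab-ASC replicate 1, 70 were called higher and 2 lower, with a median of 0.38.

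Some members were also higher in PVASCs than in Sub-ASCs, a comparison that shares its control libraries with the one before. Of the 82 tested, 37 were called higher, 2 lower and 43 neither, with 34.7% of all genes higher, 35.7% lower and 70.4% either. Calls among the members were thus fewer than the background, and nearly all in 1 direction. In 52 members every PVASC library was above every Sub-ASC library and in 5 below, where the shares over all genes were 38.3% and 39%. Only 5 members were called with an absolute value of at least 1, against 32.2% of all genes. The median was 0.22 for the members and -0.01 for all genes. The count rested on single libraries: it was 23 without Sub-ASC replicate 2 and 58 without Ab-ASC replicate 1, with 7 lower, which is in the joint fit but not in this contrast. With PVASCs and Sub-ASCs fitted alone it was 57.

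Between PVASCs and Ab-ASCs, no member was called higher and 49 of 82 were called lower in PVASCs, with 24.7% of all genes higher, 32.1% lower and 56.9% either. In 45 members every PVASC library was below every Ab-ASC library and in 0 above, where the shares over all genes were 35.6% and 28.3%. With an absolute value of at least 1, 0 members were called, against 15.4% of all genes. At an unadjusted p under 0.05, edgeR gave 1 member higher, Rpl39l, and DESeq2 called the same gene. The median was -0.30 for the members and -0.06 for all genes. This comparison depended on the scaling. With library totals in place of TMM factors, 1 member was lower, Rpl7l1, and 1 higher, Rpl39l, while the median over all genes moved from -0.06 to 0.17 and that of the members from -0.30 to -0.07. The median of the members was thus 0.23 below that of all genes, against 0.24 with TMM. With a correction for gene length this gap was 0.14, and without Ab-ASC replicate 1 it was 0.12. Without PVASC replicate 2 the count lower was 27, and without PVASC replicate 1 it was 28. Without Ab-ASC replicate 1 the median was -0.16, with 46 lower and 1 higher.

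**Figure D2:**
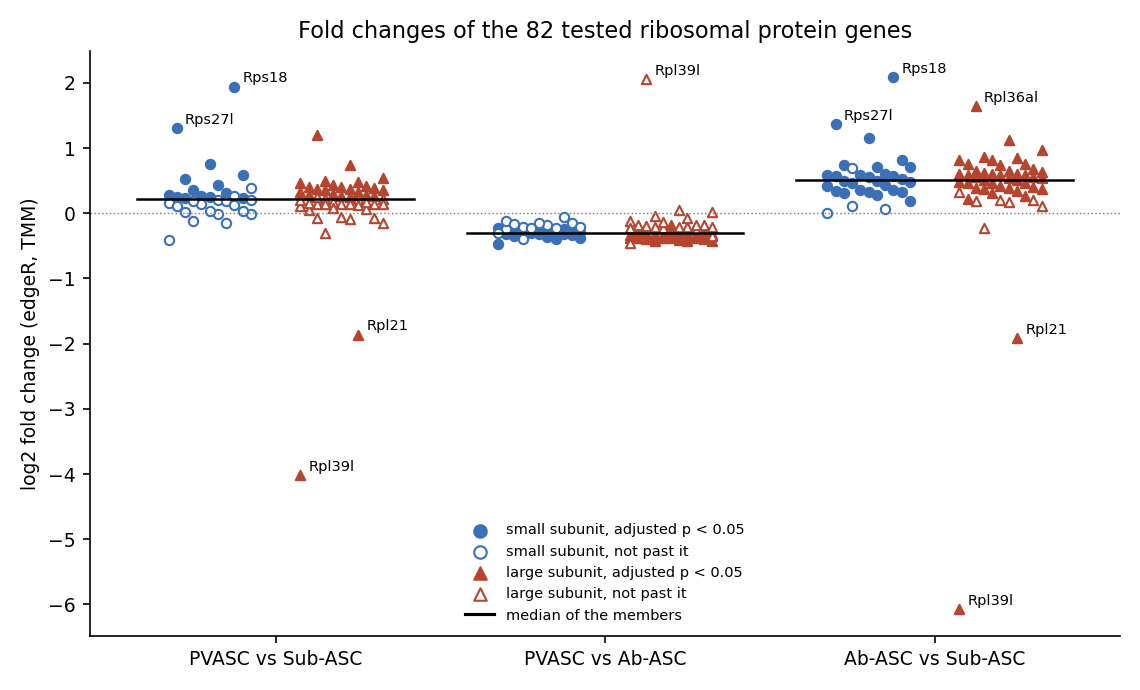
Log2 fold change (y axis) of the 82 tested members in each comparison (x axis), with circles for the small and triangles for the large subunit. Filled symbols passed an adjusted p of 0.05, and the line is the median of the members, at 0.22, -0.30 and 0.51. Rps18 and Rps27l lie above and Rpl21 and Rpl39l below the main body in both comparisons with Sub-ASCs.

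Across the groups, the mean CPM was ordered Ab-ASC above PVASC above Sub-ASC in 68 of 82 members, 82.9%, against 26.9% of all genes tested. The step between PVASCs and Ab-ASCs depended on the scaling. The median member log2 fold change there was -0.30 with TMM, which this CPM uses, and -0.07 with library totals. The median member had a mean of 410 CPM in Sub-ASCs, 472 CPM in PVASCs and 592 CPM in Ab-ASCs. A difference among the 3 groups was called for 74 of 82 members and for 84.6% of all genes, so this count was near the background. The 8 members with no such call on their own rows were Rpl17, Rpl22l1, Rpl23, Rpl24, Rpl7a, Rps27, Rps27a and Rps28. Rps28 had 244, 226 and 250 CPM in Sub-ASCs, 239, 237 and 245 CPM in Ab-ASCs and 221, 196 and 231 CPM in PVASCs. The PVASC libraries were all below the Ab-ASC libraries, and the other groups overlapped. Its log2 fold change of Ab-ASCs against Sub-ASCs was 0.00 with a standard error of 0.06.

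Rps18, a small subunit protein whose message is often used as a reference in PCR, had the largest positive log2 fold change among the members on its own row, though not with the reads of its copies added. It lies on chromosome 17 (chr17:33951999-33956001, minus strand, positions as listed and on GRCm38). Its level was 69.0, 69.0 and 78.5 CPM in Sub-ASCs. It was 371, 261 and 288 CPM in Ab-ASCs and 266, 273 and 293 CPM in PVASCs. The Sub-ASC libraries were far below all others, and Ab-ASCs and PVASCs overlapped. The log2 fold change against Sub-ASCs was 2.08 ± 0.11 (SE, adjusted p = 4.3e-09) in Ab-ASCs and 1.94 ± 0.11 (adjusted p = 8.5e-09) in PVASCs.

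Rps18 shares sequence with Gm11361, a gene listed as protein-coding that is a near copy. Gm11361 had 2901, 3395 and 3506 reads in Sub-ASCs, more than the 1607, 1756 and 2059 reads of Rps18 itself. In Ab-ASCs it had 2734, 2948 and 2704 reads and in PVASCs 3549, 2726 and 2880 reads, against 5863 to 6906 and 8058 to 9225 reads of Rps18. The reads of the copy thus did not follow those of Rps18. With the reads of all 11 sharing copies added, the log2 fold change was 1.08 in Ab-ASCs (adjusted p = 2.8e-07) and 0.84 in PVASCs (adjusted p = 3.4e-06), still called. On that scale Rps27l had 1.38 and 1.31, and Rpl36al 1.35 and 0.99.

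Rps18 is among 7 members often used as reference genes. In Ab-ASCs all 7 were higher than in Sub-ASCs. In PVASCs 3 were higher than in Sub-ASCs and 6 lower than in Ab-ASCs. Over all genes these shares were 37%, 34.7% and 32.1%. Of the 6 lower calls, those of Rpl4, Rpl32 and Rps29 were lost without PVASC replicate 1, at -0.18, -0.27 and -0.27, and also without PVASC replicate 2, at -0.18, -0.28 and -0.32. The call of Rps29 was also lost without PVASC replicate 3, Ab-ASC replicate 1 or Sub-ASC replicate 3, at -0.36, -0.15 and -0.31. Rpl13a, a large subunit protein with a role outside the ribosome in silencing inflammatory messages, had 33.9, 30.1 and 33.1 CPM in Sub-ASCs, 81.4, 63.8 and 65.7 CPM in Ab-ASCs and 54.4, 51.9 and 56.0 CPM in PVASCs. No groups overlapped. The log2 fold changes against Sub-ASCs were 1.12 ± 0.09 (SE, adjusted p = 2.3e-07) in Ab-ASCs and 0.74 ± 0.09 (adjusted p = 1.1e-05) in PVASCs. With the reads of its copies added, the values were 1.08 and 0.71. Of the exon bases of Rpl13a, 35.4% overlapped exons of Gm45713, Mir5121 and Snord33 on the same strand. In its coding sequence, 2.49% of runs of 50 bases were found in no other gene. How such reads were counted is not given, so its level is uncertain. The lowest value of this list in Ab-ASCs was 0.46, for Rpl4, a protein that lines the exit tunnel, and Rpl32, Rplp0, Rpl19 and Rps29 had 0.46, 0.48, 0.54 and 0.57. Rpl4 had a log2 fold change of -0.18 in PVASCs against Ab-ASCs, which turned to 0.04 with library totals and was then not called.

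The P-stalk, formed by Rplp0, Rplp1 and Rplp2, recruits the factors that drive translation. Rplp1 had the highest level per gene length, in CPM per kilobase of listed gene length (FPKM), with means of 1664 in Sub-ASCs, 3252 in Ab-ASCs and 2427 in PVASCs. Its 9 libraries had 869, 692 and 929 CPM in Sub-ASCs, 1927, 1448 and 1492 CPM in Ab-ASCs and 1189, 1177 and 1267 CPM in PVASCs, so no groups overlapped. The log2 fold change of Ab-ASCs against Sub-ASCs was 0.97 ± 0.12 (SE, adjusted p = 8.6e-06), beside 0.48 for Rplp0 and 0.61 for Rplp2. All 3 were lower in PVASCs than in Ab-ASCs, with values from -0.42 to -0.34, where 32.1% of all genes were lower. With library totals none of Rplp0, Rplp1 and Rplp2 was called there, at -0.11, -0.19 and -0.13, and Rplp2 also lost its call without PVASC replicate 2, at -0.33. Rplp1 alone was called higher in PVASCs than in Sub-ASCs.

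Rpl5 and Rpl11 form a particle with the small ribosomal RNA of the large subunit, and when ribosome assembly fails they bind Mdm2, the inhibitor of p53. Rpl11 had 469, 373 and 448 CPM in Sub-ASCs, 781, 580 and 612 CPM in Ab-ASCs and 499, 510 and 554 CPM in PVASCs. Rpl5 had 759, 698 and 737 CPM, then 968, 812 and 863 CPM, then 766, 809 and 830 CPM in the same order. Both were called higher in Ab-ASCs than in Sub-ASCs, with log2 fold changes of 0.61 and 0.27. Rpl11 was also called between the other groups, with 0.28 in PVASCs against Sub-ASCs and -0.34 in PVASCs against Ab-ASCs. The first call was lost without Sub-ASC replicate 2 or 3 or PVASC replicate 2 or 3, at 0.19 to 0.31, and the second without PVASC replicate 1 or 2, at -0.31 and -0.32.

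Of 10 members with roles beyond the core ribosome, 9 were higher in Ab-ASCs and 8 in PVASCs against Sub-ASCs, where 37% and 34.7% of all genes were higher. The medians were 0.71 and 0.40, and the values ran from 0.31 to 1.37 and from 0.11 to 1.31. The PVASC calls of Rpl22, Rpl38 and Rps3 were lost without Sub-ASC replicate 2, at 0.26, 0.28 and 0.19, and without PVASC replicate 3, at 0.26, 0.35 and 0.21. Those of Rpl38 and Rps3 were also lost without Sub-ASC replicate 3, at 0.45 and 0.27, or PVASC replicate 2, at 0.46 and 0.27. That of Rpl38 was lost without PVASC replicate 1, at 0.45, and that of Rps3 without Sub-ASC replicate 1 or Ab-ASC replicate 3, at 0.27 and 0.25. Rps27l stood out and is described with its parent gene. Rpsa, which also exists as a laminin receptor, had 297, 288 and 291 CPM in Sub-ASCs, 609, 438 and 495 CPM in Ab-ASCs and 432, 386 and 493 CPM in PVASCs. Its pseudogene row Rpsa-ps10 held 15204 to 30832 reads per library, against 6920 to 15485 on Rpsa itself. With the copies added, the log2 fold change of Ab-ASCs against Sub-ASCs was 0.83, against 0.81 without them, so the copies hardly changed the value. Rps25, needed for initiation at internal ribosome entry sites, Rpl10a and Rpl38, linked to the choice of messages in development, had 0.74, 0.63 and 0.76. Rps6, the substrate of S6 kinase, had 0.31, and Rps3, also a DNA repair protein, had 0.53.

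Rps27a, which is made as a fusion with ubiquitin, varied within groups more than any other member at high level. It had 193, 312 and 101 CPM in Sub-ASCs, 393, 425 and 157 CPM in Ab-ASCs and 126, 198 and 466 CPM in PVASCs. All groups overlapped, and the coefficient of variation reached 68.1% in PVASCs. In the median member this coefficient was 7.30% in Sub-ASCs, 15.9% in Ab-ASCs and 5.41% in PVASCs. No comparison of Rps27a was called, and with its copies added the PVASC value was still 58.3%. Among the tested members, only Rps27a and Rpl39l had a coefficient over 30% in any group.

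**Figure D3:**
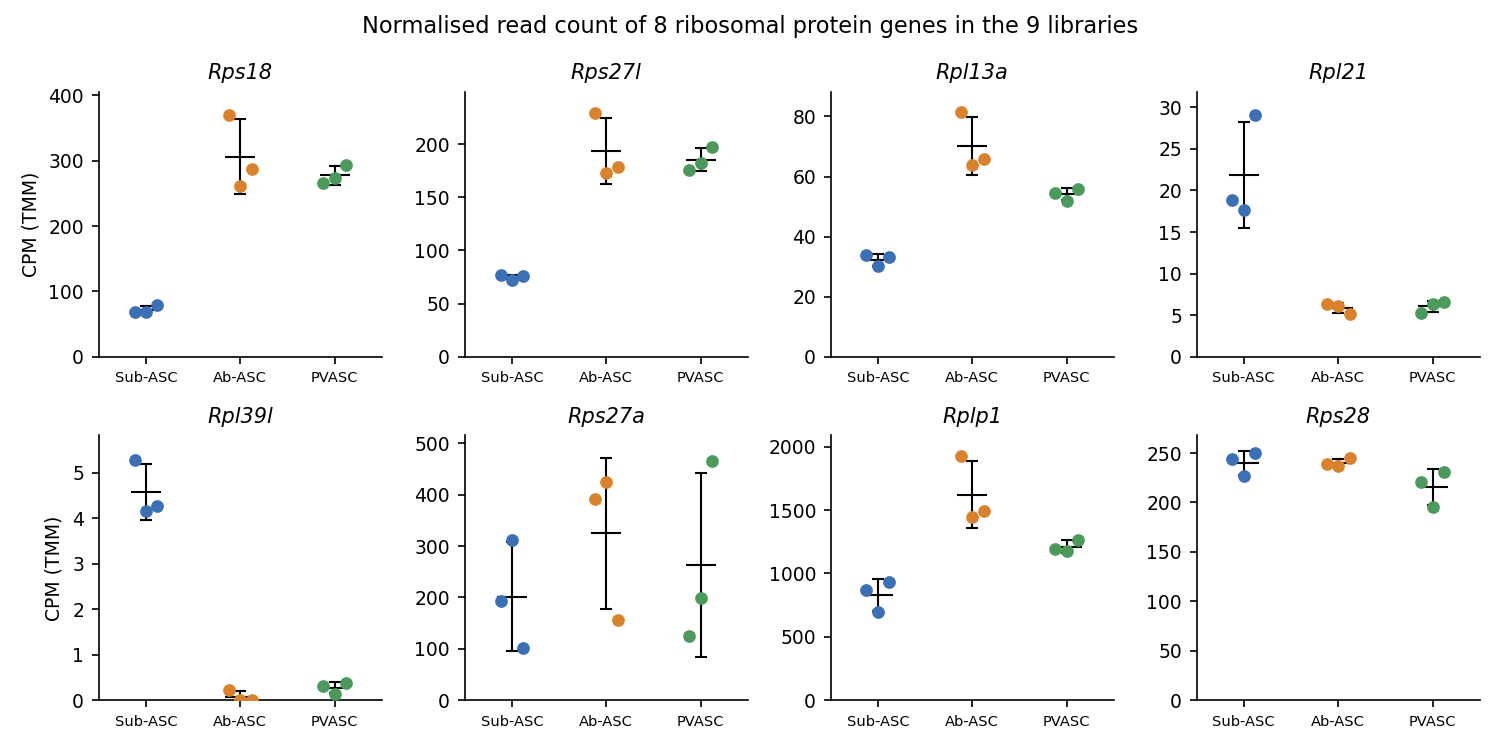
Normalised read count in CPM (y axis, each panel from 0) of 8 members in the 9 libraries of the 3 groups (x axis), with points for libraries and bars for mean ± SD of 3. Rps18, Rps27l, Rpl13a and Rplp1 are lowest in Sub-ASCs, and Rpl21 and Rpl39l are highest there. Rps27a overlaps between all groups, and Rps28 overlaps except between Ab-ASCs and PVASCs.

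Several paralogs lay outside the range of most members. Rpl39l, a paralog of Rpl39 best known from the testis, and Rpl21 made up the 2 members called lower in Ab-ASCs and in PVASCs than in Sub-ASCs on their own rows. Rpl39 sits at the exit tunnel of the large subunit. The coding sequences show how the gene pair can be told apart in the reads, with capitals at the 23 of 156 bases that differ, in an 85.3% identity (GENCODE M21 on GRCm38, written from the start codon). The longest run that both share is 38 bases.
Rpl39: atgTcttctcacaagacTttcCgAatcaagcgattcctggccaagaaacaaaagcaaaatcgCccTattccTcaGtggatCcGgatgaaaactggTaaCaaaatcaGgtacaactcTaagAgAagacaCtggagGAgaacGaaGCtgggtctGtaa
Rpl39l: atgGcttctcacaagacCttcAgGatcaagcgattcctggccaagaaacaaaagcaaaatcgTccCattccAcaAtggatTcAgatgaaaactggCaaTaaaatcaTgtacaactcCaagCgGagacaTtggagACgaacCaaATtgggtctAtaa

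Rpl39l (chr16:10170226-10174911, plus strand) had 123, 106 and 112 reads in Sub-ASCs, 4, 0 and 0 reads in Ab-ASCs and 10, 4 and 12 reads in PVASCs. Every Sub-ASC library was above all others. Every run of 50 bases in its coding sequence was found in no other annotated transcript. Summed over 3 libraries and scaled by library size, the level was 16.4-fold higher in Sub-ASCs than in PVASCs, with an exact 95% interval of 10.99 to 25.45, and 72.3-fold higher than in Ab-ASCs, with an interval of 27.97 to 267, which cover counting error only. Rpl39l passed the low-count filter only through Sub-ASCs, the group where it was high, so it had to differ once kept, and its call is a description. The fitted log2 fold change was -4.02 in PVASCs and -6.07 in Ab-ASCs, the latter set in part by the prior count. The level was low in all groups, with a mean FPKM of 5.50 in Sub-ASCs, where Rpl39 had 249.

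Rpl39 itself had 366, 341 and 365 CPM in Sub-ASCs, 565, 392 and 401 CPM in Ab-ASCs and 331, 329 and 360 CPM in PVASCs. The log2 ratio of Rpl39l to Rpl39, on FPKM + 0.1, was -5.48 ± 0.16 in Sub-ASCs, -10.99 ± 0.77 in Ab-ASCs and -9.17 ± 0.52 in PVASCs (SD, n = 3). No groups overlapped. On the scale of FPKM + 1 these were -5.27, -8.18 and -7.49, so the gap between the groups depends on the pseudocount at this depth, while the order does not.

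Rps27l, a paralog of Rps27 that p53 induces and that binds Mdm2, rose in the other direction. The coding sequences, again with differing bases in capitals, differ at 61 bases, an identity of 76.1%, and the longest shared run is 11 bases.
Rps27: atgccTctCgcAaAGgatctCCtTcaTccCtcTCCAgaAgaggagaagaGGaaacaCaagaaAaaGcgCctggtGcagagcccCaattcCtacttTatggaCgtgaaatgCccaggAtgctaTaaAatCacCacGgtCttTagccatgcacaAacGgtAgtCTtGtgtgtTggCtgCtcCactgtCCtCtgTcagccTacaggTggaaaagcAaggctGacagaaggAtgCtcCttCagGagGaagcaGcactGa
Rps27l: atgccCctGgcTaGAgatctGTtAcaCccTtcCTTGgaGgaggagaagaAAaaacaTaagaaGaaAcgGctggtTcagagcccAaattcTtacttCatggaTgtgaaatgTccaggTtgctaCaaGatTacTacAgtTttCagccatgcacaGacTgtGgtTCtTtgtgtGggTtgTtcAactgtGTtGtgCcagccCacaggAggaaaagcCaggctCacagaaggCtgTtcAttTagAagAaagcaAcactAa

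Rps27l (chr9:66946086-66949516, plus strand) had 76.6, 72.3 and 76.0 CPM in Sub-ASCs, 229, 173 and 178 CPM in Ab-ASCs and 176, 182 and 198 CPM in PVASCs. Sub-ASCs were below all other libraries, and the other groups overlapped. The log2 fold change against Sub-ASCs was 1.37 ± 0.10 (SE, adjusted p = 5.4e-08) in Ab-ASCs and 1.31 ± 0.10 (adjusted p = 8.5e-08) in PVASCs, and both calls held in every alternative fit that was run. Reads on copies were 0.00569% of the sum of Rps27l and its copies.

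Rps27, the parent gene, had 315, 322 and 329 CPM in Sub-ASCs, 427, 266 and 321 CPM in Ab-ASCs and 168, 265 and 295 CPM in PVASCs. The log2 ratio of Rps27l to Rps27 on their own rows was -1.75 ± 0.06 in Sub-ASCs, -0.43 ± 0.15 in Ab-ASCs and 0.01 ± 0.36 in PVASCs. The PVASC libraries had 0.43, -0.18 and -0.22, so the PVASC mean was raised by replicate 1. Per gene length and on these rows, Rps27l made up 22.9%, 42.5% and 50.1% of the pair. PVASC replicate 1 stood apart, with 5483 reads on Rps27 and 6072 on the near copy Rps27rt, where the other 8 libraries had 2295 to 3733 reads on Rps27rt. The sum of Rps27 and its copies varied by 3.78% in PVASCs, against 27.4% for Rps27 alone. This sum had means of 454, 452 and 357 CPM in Sub-ASCs, Ab-ASCs and PVASCs. Against it the share of Rps27l would be lower in every group, and no ratio was computed there. With the copies added, Rps27 was called lower in PVASCs than in Sub-ASCs, at -0.34 (edgeR adjusted p = 0.012), and than in Ab-ASCs, at -0.34 (adjusted p = 0.015).

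Rpl7l1, a nucleolar relative of Rpl7, had 90.3, 91.9 and 90.8 CPM in Sub-ASCs, 181, 145 and 155 CPM in Ab-ASCs and 118, 123 and 119 CPM in PVASCs. Its log2 ratio to Rpl7 was -3.75 ± 0.03, -3.16 ± 0.10 and -3.30 ± 0.06 in Sub-ASCs, Ab-ASCs and PVASCs, with no overlap. Rpl7l1 had the smallest adjusted p of any member between PVASCs and Ab-ASCs, 0.00045, with a log2 fold change of -0.42 ± 0.07 (edgeR, SE). Rpl22l1, which can replace Rpl22 in the ribosome, had a log2 ratio of -2.36 ± 0.21, -2.56 ± 0.22 and -2.49 ± 0.05 in the same order, and all groups overlapped. Rpl36al had 15 to 66 reads per library and a log2 ratio to Rpl36a of -7.86 ± 0.27, -6.71 ± 0.42 and -6.95 ± 0.27. Of the exon bases of Rpl36al, 24.5% overlapped exons of Gm49383, and none of its runs of 50 bases was unique. No ratio is given for Rpl3 and Rpl10, whose paralogs were at or under 3 reads in all libraries, or for Rps4x, whose partner Rps4l is listed as a pseudogene.

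**Figure D4:**
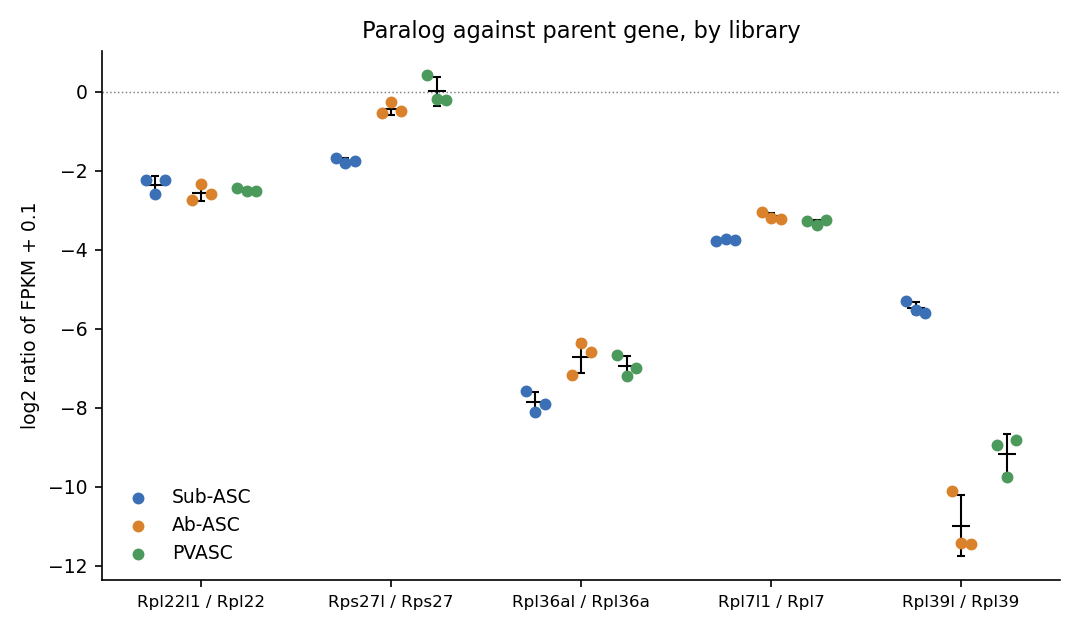
Log2 ratio of paralog to parent gene on FPKM + 0.1 (y axis) for 5 gene pairs (x axis), with a point per library and bars for mean ± SD of 3 libraries. The ratio of Rps27l to Rps27, without the copies of Rps27, is -1.75 in Sub-ASCs and 0.01 in PVASCs, where replicate 1 lies apart at 0.43. That of Rpl39l to Rpl39 is -5.48 in Sub-ASCs, -9.17 in PVASCs and -10.99 in Ab-ASCs.

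Sequence copies touched many members. In 28 of 84, no run of 50 bases in the coding sequence was found in that gene alone. Across the members, 1082 rows of pseudogenes and near copies shared such a run, 653 of them with at least 1 read, and they held 0.502%, 0.661% and 0.639% of counted reads in Sub-ASCs, Ab-ASCs and PVASCs. For the median member the copies held 5.45% of the sum of gene and copies. In 4 members they held more than the gene: 98.0% for Rps10, 85.4% for Rpl21, 69.6% for Rpsa and 54.0% for Rpl17. How reads that fit several places were counted is not given in the sources used here.

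Rpl21, a large subunit protein, was the other member called lower than in Sub-ASCs on its own row. Rpl21 had 18.8, 17.6 and 29.1 CPM in Sub-ASCs, 6.28, 6.05 and 5.17 CPM in Ab-ASCs and 5.26, 6.34 and 6.52 CPM in PVASCs. Its log2 fold change was -1.91 ± 0.19 (SE, adjusted p = 1.4e-06) in Ab-ASCs and -1.86 ± 0.18 (adjusted p = 1.2e-06) in PVASCs. None of its runs of 50 bases was unique, 78 copies shared one, and Rpl21-ps15 alone had 854 to 1412 reads per library, against 116 to 764 on Rpl21. With all copies added, the values were -0.40 (adjusted p = 0.0015) and -0.46 (adjusted p = 0.00058), still called but much smaller.

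Rps10, whose variants cause Diamond-Blackfan anaemia, had 65 to 218 reads per library, while its pseudogene row Rps10-ps2 had 4823 to 7736. Of its exon bases, 20.6% overlapped exons of other genes on the same strand and 28.7% on either strand. The overlapping genes were RPS10-NUDT3 and Gm15420. Rps10 alone was higher in Ab-ASCs than in Sub-ASCs by 1.15 ± 0.23 (SE, adjusted p = 0.00063), and with its copies by 0.40 (adjusted p = 0.0013). The call of Rps10 in PVASCs against Sub-ASCs, at 0.76, was lost with the copies, where the value was 0.14, and also without Sub-ASC replicate 3, at 0.62, or PVASC replicate 1, at 0.55. Of all 82 tested members, 5 moved by more than 0.2 in Ab-ASCs against Sub-ASCs when the copies were added: Rps18, Rpl21, Rps10, Rpl36al and Rps29.

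Members differed in how much of their coding sequence no other gene shares. Of the 22 tested members with at least 20% of runs unique, 21 were higher in Ab-ASCs than in Sub-ASCs and 1, Rpl39l, lower, with a median of 0.49. In PVASCs, 11 were higher and 1 lower than in Sub-ASCs with a median of 0.23, and 18 lower than in Ab-ASCs with a median of -0.30. Of the 13 with at least 50% unique, 12 were higher and 1 lower in Ab-ASCs than in Sub-ASCs, with a median of 0.46. In PVASCs, 7 of these 13 were higher and 1 lower than in Sub-ASCs, and 9 lower than in Ab-ASCs. Of the 28 with no unique run, 22 were higher and 1 lower in Ab-ASCs than in Sub-ASCs, with a median of 0.52. In PVASCs, 12 of these 28 were higher and 1 lower than in Sub-ASCs, and 14 lower than in Ab-ASCs. Over all genes, 37% were higher in Ab-ASCs and 34.7% in PVASCs than in Sub-ASCs, and 32.1% were lower in PVASCs than in Ab-ASCs. With the reads of all copies added to their members, 70 were higher in Ab-ASCs than in Sub-ASCs. In PVASCs, 37 were higher than in Sub-ASCs and 57 lower than in Ab-ASCs.

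**Figure D5:**
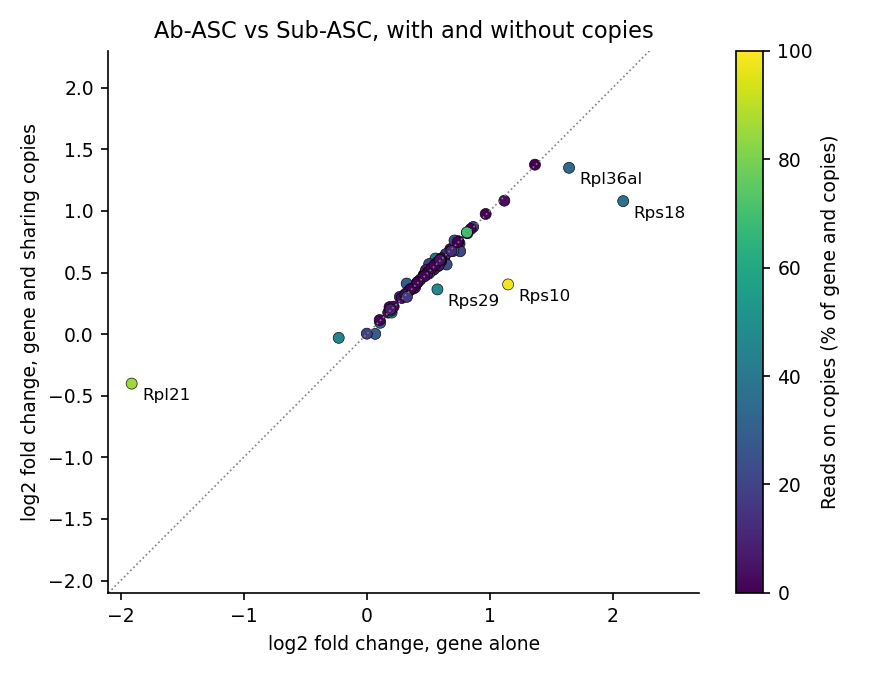
Log2 fold change of Ab-ASCs against Sub-ASCs for each tested member alone (x axis) and with the reads of its sharing copies added (y axis), without Rpl39l, which has no copy and lies at -6.07. Colour gives the percent of reads on copies, the dotted line marks equal values, and the named genes Rps18, Rpl36al, Rps10, Rps29 and Rpl21 moved by more than 0.2.

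Levels per gene length spanned a wide range. The median tested member had a mean FPKM of 272, and the middle 80% lay between 63.5 and 649. Rplp1, Rplp0 and Rps3a1 were highest, with means over the groups of 2447, 1310 and 1049. Among tested members, Rpl36al, Rpl39l and Rps10 were lowest, with 1.25, 1.97 and 2.20. For Rps10 the reads on Rps10-ps2 are not part of that level, and exons of both Rps10 and Rpl36al overlap other genes, as given above. Scaled by coding length in place of listed length, Rpl41, which encodes the shortest ribosomal protein, came first, with 14005 CPM per kilobase against a median of 1116. Reads outside the coding sequence are part of that value.

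Start sites were compared because the TOP start marks this gene family. RefSeq promoters (GRCm38.p6) matched 64 of the 84 members by symbol. A C at the annotated start followed by 4 bases that are C or T was found in 13 of these 64, 20.3%, against 3.01% of 27025 genes and 0 of 69 mitochondrial ribosomal protein genes. CTTTCC or CTTCC lay on the coding strand within 15 bases of the start in 31.3% of members and 9.32% of genes. Searched on both strands over the 300 bases from 250 before to 50 after the start, CCGGAAG, the core bound by ETS factors, was in 40.6% of members and 9.93% of genes, GGGCGG in 62.5% and 38.2%, and AAGATGGC in 9.38% and 3.19%. In the 69 mitochondrial ribosomal protein genes, CTTTCC or CTTCC near the start was in 15.9%, CCGGAAG in 37.7%, GGGCGG in 49.3% and AAGATGGC in 17.4%, so for AAGATGGC they were above the members. CCGGAAG read on the other strand holds CTTCC, so these counts overlap. The shares describe letters in the window and not binding.

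The windows below show 15 bases before and 15 from the annotated start, with the longest run of C and T in capitals where it has at least 5 bases. The first 4 are of core members with a TOP start. The last 3 are of the paralogs Rps27l and Rpl39l and of Rpl13a, all described above, and none of these 3 has C followed by 4 pyrimidines at its annotated start.
Rps18 (chr17:33955651-33955680, minus strand): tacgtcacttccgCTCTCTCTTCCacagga
Rpl35 (chr2:39005117-39005146, minus strand): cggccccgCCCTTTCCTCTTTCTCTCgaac
Rps6 (chr4:86857353-86857382, minus strand): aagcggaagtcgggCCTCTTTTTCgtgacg
Rps27 (chr3:90213634-90213663, minus strand): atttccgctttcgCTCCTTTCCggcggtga
Rps27l (chr9:66946071-66946100, plus strand): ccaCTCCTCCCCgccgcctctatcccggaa
Rpl39l (chr16:10170213-10170242, plus strand): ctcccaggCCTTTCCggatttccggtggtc
Rpl13a (chr7:45128731-45128760, minus strand): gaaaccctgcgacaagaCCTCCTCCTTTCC

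Within the printed set, Rps18 and Rps6, which both start with C and a pyrimidine run, had log2 fold changes of 2.08 and 0.31 in Ab-ASCs against Sub-ASCs. Annotated starts can lie some bases from the start in these cells, and no test of start sequence against expression was made.

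Other genes of the ribosome were set beside the members. Rack1, the scaffold on the small subunit, which lies outside the name rule, was higher in Ab-ASCs than in Sub-ASCs by 0.62 ± 0.09 (SE, edgeR adjusted p = 3.3e-05). Fau, also outside the name rule, had 0.21 ± 0.11 there and was not called. Both were lower in PVASCs than in Ab-ASCs. Among the 19 members known from Diamond-Blackfan anaemia, an inherited failure of red cell production, 17 were higher in Ab-ASCs and 9 in PVASCs against Sub-ASCs, where 37% and 34.7% of all genes were higher. For the lists that follow, the shares of all genes were the same, with 38.3% and 35.7% lower in these comparisons, and 24.7% higher and 32.1% lower in PVASCs against Ab-ASCs.

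Ribosomal proteins of mitochondria, which are made by the cytosolic ribosome and imported, were counted in the same way. Of 77 tested, 70 were higher in Ab-ASCs than in Sub-ASCs with a median of 0.66, and 45 were higher and 3 lower in PVASCs than in Sub-ASCs with a median of 0.25. In PVASCs against Ab-ASCs, 64 were lower and 1 higher with a median of -0.38. Mrps6 was that exception, with means of 12.5, 31.3 and 42.4 CPM in Sub-ASCs, Ab-ASCs and PVASCs. Mrpl20 and Mrpl12 rose by 1.56 and 1.49 on the log2 scale in Ab-ASCs against Sub-ASCs.

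Ribosome biogenesis factors, which process ribosomal RNA and assemble the subunits, were nearly all higher than in Sub-ASCs. Of 50, 49 were higher in Ab-ASCs and 46 in PVASCs against Sub-ASCs, and none was lower in the edgeR test, with medians of 1.09 and 0.82. Their medians were not tested against those of the members. Rrp12, an export factor of the subunits, had 11.97 ± 0.859, 50.9 ± 2.16 and 32.2 ± 0.659 CPM in Sub-ASCs, Ab-ASCs and PVASCs (SD, n = 3). Nop56, of the particle that methylates ribosomal RNA, had 48.3 ± 3.29, 189 ± 16.2 and 144 ± 5.57 CPM. Nhp2, of the particle that makes pseudouridine, had 28.1 ± 3.68, 99.1 ± 15.7 and 69.2 ± 2.86 CPM. In PVASCs against Ab-ASCs, 35 were lower and 3 higher.

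Of the chaperones of ribosomal proteins, 8 of 8 tested were higher in Ab-ASCs and 7 in PVASCs against Sub-ASCs. Grwd1, the chaperone of Rpl3, had 14.6, 48.8 and 33.2 CPM on average in Sub-ASCs, Ab-ASCs and PVASCs. Heatr3, which brings Rpl5 into the nucleus, had 35.1, 75.9 and 61.9 CPM. The histone chaperone Nap1l1, also a TOP message, had 214, 990 and 767 CPM. Proliferation markers differed between the same groups. Their sum was 192 to 198 CPM in Sub-ASCs, 1125 to 1187 CPM in Ab-ASCs and 1063 to 1072 CPM in PVASCs, with all 12 higher in both other groups and 8 lower and 2 higher in PVASCs than in Ab-ASCs. Their part in the differences of the ribosomal genes was not tested.

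Other genes with TOP messages, most of them translation factors, were mixed. Of 18, 11 were higher and 5 lower in Ab-ASCs than in Sub-ASCs, with a median of 0.38, and 10 were higher and 5 lower in PVASCs. The largest changes were in 3 that are not translation factors: Nap1l1, given above, Vim, an intermediate filament, and Hnrnpa1, a splicing factor. Vim and Hnrnpa1 rose by 1.21 and 1.32 in Ab-ASCs against Sub-ASCs. Of 18 genes of mTORC1 and its control of TOP messages, 8 were higher and 6 lower in Ab-ASCs, and 6 higher and 7 lower in PVASCs, each against Sub-ASCs. Ddit4, Depdc5 and Sesn1, which restrain mTORC1, had 161, 48.6 and 22.2 CPM in Sub-ASCs. They had 69.0, 30.5 and 9.48 CPM in Ab-ASCs and 60.8, 19.5 and 11.9 CPM in PVASCs, and all 3 were called lower than in Sub-ASCs in both groups.

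Genes of the Myc network, which drives ribosome production, split evenly, with 4 higher and 5 lower of 10 in each of Ab-ASCs and PVASCs against Sub-ASCs. The 3 with the largest changes had low levels: Mycn had a mean of 0.123, 7.14 and 3.36 CPM in Sub-ASCs, Ab-ASCs and PVASCs, Mycl 0.336, 6.77 and 9.70 CPM, and Mxd3, a repressor in this network, 0.887, 9.58 and 7.30 CPM. Mycn had 0.215, 0.0393 and 0.114 CPM in the Sub-ASC libraries, where 3 reads were 0.129, 0.118 and 0.114 CPM. Mycn and Mycl passed the low-count filter only through Ab-ASCs and PVASCs, the groups where they were high. Their calls against Sub-ASCs, which are among the 4 higher, are therefore descriptions. Of 10 genes of the p53 and Mdm2 circuit, to which Rps27l, Rpl5 and Rpl11 are linked, 8 were higher and 1 lower in Ab-ASCs, and 9 higher and 1 lower in PVASCs, against Sub-ASCs. Ccng1, a p53 target, had 151, 290 and 575 CPM, Phlda3, which restrains Akt, 49.5, 179 and 186 CPM, and Eda2r, a death receptor, 17.8, 31.9 and 63.0 CPM in Sub-ASCs, Ab-ASCs and PVASCs. In PVASCs against Ab-ASCs, 6 of the 10 were higher and 1 lower, while Rps27l had -0.06 ± 0.09 there and was not called.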

How the data were processed

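RNA of cultured ASCs was sequenced in 9 libraries, 3 per group. The authors deposited raw counts per gene, not normalised, with gene length, position and biotype, and every per-sample column was used (0 were left out). The submitters' processing notes name CASAVA 1.8, Bowtie 0.12.2 and featureCounts 1.5.0-p3, and the builds mm8 and mm10 without their roles. Start and end matched GENCODE M21 (GRCm38) for 53499 of 54532 genes and 82 of 84 members. Strand and the handling of reads with several places are not given in the sources used here, so overlapping genes and near copies are uncertain.

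Counts were tested with edgeR 4.0.16 (quasi-likelihood, limma 3.58.1, R 4.3.3) after filterByExpr and TMM, with all 9 libraries in 1 fit without covariates and Benjamini-Hochberg adjustment over 16526 genes at 0.05. The procedure was tested on simulated data. CPM used TMM sizes, and FPKM divided CPM by listed length. Copies were pseudogene, retrogene and Gm rows sharing a run of 50 bases with a member's coding sequence, each assigned to the member with which it shared most. Tables and sequences used Python 3.11.15, pandas 2.3.3, numpy 2.4.6, scipy 1.17.1 and Biopython 1.88. Protein sequences were not used here.

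The members and lists were chosen with earlier results of these data known. Named members were 8 gene pairs, the P-stalk, Rpl5 and Rpl11, reference genes, genes with special roles, those not tested, extremes of level and within-group variation, and per comparison the 5 largest called changes each way without overlap between groups. Rpl29 and Rpl34 also met this last rule, as lower in PVASCs than in Ab-ASCs. With their copies added, their log2 fold changes there were -0.43 and -0.40. Both calls were lost with library totals, at -0.19 and -0.17. The call of Rpl34 was also lost without PVASC replicate 1, at -0.37, and with only the groups compared, at -0.32. From other lists the 3 largest called changes were named. Rps28, Rpl41, Rpl35, Rpl17, Rpl23, Rpl24 and Rpl7a were named after their values were seen.

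Alternatives were DESeq2 1.42.0, RLE and upper-quartile factors, TMM without the members, library totals, all genes without a filter, a minimum of 10 reads in each library, only the groups compared, a replicate block, a minimum log2 fold change of 1 in size, a correction for gene length by loess with span 0.5, named pseudogenes added, other denominators and pseudocounts, and leaving out each library. Adding all copies and scaling by coding length were chosen after seeing the data.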

Additional observations from a re-analysis of the deposited data

Results flagged for a closer look

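Reads on rows outside the members were flagged as a signal in data that the comparisons did not use. Copies held 98.0% of the sum of gene and copies for Rps10, 69.6% for Rpsa and 37.5% for Rps18. Over all copies the share of counted reads was 0.502% in Sub-ASCs, 0.661% in Ab-ASCs and 0.639% in PVASCs (means of 3 libraries). Groups of 3 libraries are too small for a test of single outlying libraries.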

How the results depend on the processing

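For the members called higher and lower and their medians, 22 alternatives were run, 9 of which left out a library. The values not given here lay within 1.5 times the count or within the spread between libraries. With library totals, PVASCs against Sub-ASCs had 61 higher with a median of 0.38, and PVASCs against Ab-ASCs 1 higher and 1 lower with a median of -0.065. Over all 16526 genes, library totals gave 6897 higher against 5735 with TMM in the first comparison, and 6291 higher and 2680 lower against 4088 and 5308 in the second. Without a low-count filter, PVASCs against Sub-ASCs had 59 higher and 5 lower, and PVASCs against Ab-ASCs 1 higher. Of the 30797 genes then tested, 6285 were higher and 6491 lower in the first comparison. With only the groups compared, PVASCs against Sub-ASCs had 57 higher and 7 lower, and 25 were lower in PVASCs against Ab-ASCs. With at least 10 reads in every library, 1 was lower in Ab-ASCs than in Sub-ASCs, since Rpl39l is no longer tested. The length correction and DESeq2 each gave 1 higher in PVASCs against Ab-ASCs, and all copies added gave 4 lower in PVASCs against Sub-ASCs. With a minimum size of 1 on the log2 scale, 3 were higher in PVASCs against Sub-ASCs, 5 in Ab-ASCs against Sub-ASCs and 0 lower in PVASCs against Ab-ASCs. Apart from the settings whose construction shows it, the cause was not tested.

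Leaving out a library gave 23 to 58 higher and 2 to 7 lower with medians of 0.15 to 0.27 for PVASCs against Sub-ASCs, 0 to 1 higher and 27 to 66 lower with medians of -0.38 to -0.16 for PVASCs against Ab-ASCs, and 65 to 73 higher and 2 lower with medians of 0.38 to 0.59 for Ab-ASCs against Sub-ASCs. The 7 lower and the median of -0.16 were without Ab-ASC replicate 1. Any difference was called for 69 to 76 members. The mean share ran from 3.61% to 3.79% in Sub-ASCs, 4.59% to 5.16% in Ab-ASCs and 4.61% to 4.83% in PVASCs. With named pseudogenes the share was 3.94% in Sub-ASCs and 5.11% in PVASCs, and with all copies 4.17%, 5.60% and 5.38% in Sub-ASCs, Ab-ASCs and PVASCs.

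With a pseudocount of 1, the log2 ratio was -2.43 for Rpl22l1 to Rpl22 in PVASCs, -3.71 for Rpl7l1 to Rpl7 in Sub-ASCs, -6.64, -6.16 and -6.25 for Rpl36al to Rpl36a and -5.27, -8.18 and -7.49 for Rpl39l to Rpl39 in Sub-ASCs, Ab-ASCs and PVASCs. Between PVASCs and Ab-ASCs, Rpl4 and Rps3a1 turned to 0.044 and 0.0053 with library totals, and neither was then called. Same-numbered libraries had correlations of deviations from -0.05 to 0.10 over all genes. Over the members these ran from -0.805 (PVASCs against Ab-ASCs, replicate 3) to 0.550 (Ab-ASCs against Sub-ASCs, replicate 3). Such values from 3 libraries per group cannot decide whether the numbers pair the libraries. With the replicate block, 42 members were higher and 3 lower in PVASCs against Sub-ASCs, 70 higher and 2 lower in Ab-ASCs against Sub-ASCs, and 52 lower in PVASCs against Ab-ASCs. Depth limits Rpl39l, Rpl36al and Rps10, at 0 to 218 reads per library.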
